A study of Mus musculus with 577 samples.

Results

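Obox1, Obox2, Obox3, Obox5 and Obox6 are 5 homeobox genes of the mouse Obox family, and their reads were followed through every table of genes deposited for single oocytes, single granulosa cells, pools of granulosa cells and mouse embryonic stem cells (mESCs). They are 5 of 22060 protein-coding genes in these tables, and were found by their symbols. The choice used measured values: Obox genes stood out among the genes that ordered oocytes in a principal component analysis of the DRaqL-SC3-seq libraries and among the genes higher in granulosa cells next to an oocyte in the same libraries. The levels in DRaqL-SC3-seq are therefore a description. Obox7 and Obox8, the other 2 protein-coding genes of the family, are given beside them where their values bear on the members.

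The libraries came from ovaries of 8-week-old female mice, for which no strain, genotype change or treatment is given in the sources used here, and from mESCs grown in 2iLIF medium. Ovaries were snap-frozen, sectioned, treated with alcohol as the fixative and coloured by cresyl violet, or kept for 24 h in formalin, and single cells were cut out by laser capture microdissection (LCM). DRaqL lyses the captured cell with a denaturing detergent and then quenches that detergent with an excess of a mild one, so that cDNA can be made without RNA purification. Alcohol-fixed cells were read by DRaqL-SC3-seq, a method that sequences the 3′ ends of transcripts, by the SMART-Seq v4 3′DE kit with and without DRaqL, by DRaqL-Smart-seq2 and by LCM-seq, a Smart-seq2-based method without DRaqL. Formalin-fixed cells were read by DRaqL-Smart-seq2 with a protease step. Oocytes were labelled as from primary follicles or from secondary to antral follicles (secondary-antral), and granulosa cells as neighboring or non-neighboring to the oocyte. One further mouse, in proestrus, gave one ovary for LCM and the other for cumulus-oocyte complexes dissociated into single cells in a medium with a cAMP analog. Among the dissociated cells, oocytes were labelled as grown, and neighboring cells were those attached to an oocyte. The captured cells of this mouse were read by DRaqL-Smart-seq2 and the dissociated ones by Smart-seq2. Pools held about 10 granulosa cells each from early antral follicles, and bulk samples held the granulosa cells of 1 sectioned follicle, from which the oocyte had been removed first where the section held one. No label names the mouse behind a cell, so each group of single cells counted as 1 sample and no test was made between such groups. SDs below are over cells. Between 12748 and 17506401 reads fell on protein-coding genes in a library, and levels are the reads on a gene scaled to a common total of these (RPM), averaged over cells unless another measure is named.

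Homeobox genes encode transcription factors that bind DNA through a homeodomain. The Obox family is a group of paired-like homeobox genes that arose by duplication in rodents and lies near Crx, the photoreceptor homeobox gene to which it is related. Obox proteins are known as maternal factors that the oocyte stores and that take part in the start of transcription in the early embryo, Obox3 is also transcribed by the embryo after fertilization, and Obox6 has been used to aid the reprogramming of fibroblasts to pluripotency.

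The 5 members spanned 450958 bases of chromosome 7 in GRCm38 by the GENCODE M21 annotation, and the end of this span lay 26268 bases from Crx. Obox2 (ENSMUSG00000074369) lay at chr7:15388721-15398545 on the plus strand. Obox1 (ENSMUSG00000054310) was annotated at chr7:15388948-15556866 on the same strand, with 6 transcripts, and overlapped Obox2 over 9598 bases. Obox3 (ENSMUSG00000066772), at chr7:15479825-15639902 on the minus strand, had 8 transcripts and overlapped Obox1 over 77042 bases. Obox5 (ENSMUSG00000074366) lay at chr7:15750131-15759800 on the plus strand, and Obox6 (ENSMUSG00000041583), with 1 transcript, at chr7:15833241-15839678 on the minus strand. The last 300 bases of the Obox1 and Obox2 transcripts, where 3′ reads fall, were 99.3% identical and differed by 2 substitutions. Obox5 had 43.4% identity with Obox1 over the same stretch although its coding sequence, compared without gaps, was 95.6% identical, and its end was closer to that of Obox3, at 86.3%. Obox6 had the lowest identity to Obox1 of the members over aligned coding bases, 78.6%, whereas over the last 300 bases its 59.3% was above that of Obox5. Reads of Obox1 and Obox2 are thus uncertain as to which of the 2 genes they came from, and the same holds to a lesser degree for Obox5 and Obox3.

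The start regions of Obox1, Obox2, Obox3 and Obox5, the members with most reads in oocytes, are shown because they shared stretches of sequence. Each window covers 250 bases before to 50 bases after the RefSeq start on GRCm38.p6, written 5′ to 3′ on the strand of the gene, for Obox1 (chr7:15547007-15547306, plus strand), Obox2 (chr7:15388601-15388900, plus strand), Obox3 (chr7:15639728-15640027, minus strand) and Obox5 (chr7:15750120-15750419, plus strand). The capitals mark 2 runs of letters that the windows shared, one of 25 bases and, where present, one of 42 bases that holds TATATAAG, a TATA box with its flank.
Obox1: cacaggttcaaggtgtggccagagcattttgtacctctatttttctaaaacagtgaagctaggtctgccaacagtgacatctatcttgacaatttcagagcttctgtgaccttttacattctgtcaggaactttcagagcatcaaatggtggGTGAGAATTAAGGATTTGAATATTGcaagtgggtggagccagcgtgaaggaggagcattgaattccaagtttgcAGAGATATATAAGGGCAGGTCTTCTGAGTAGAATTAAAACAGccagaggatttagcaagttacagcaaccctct
Obox2: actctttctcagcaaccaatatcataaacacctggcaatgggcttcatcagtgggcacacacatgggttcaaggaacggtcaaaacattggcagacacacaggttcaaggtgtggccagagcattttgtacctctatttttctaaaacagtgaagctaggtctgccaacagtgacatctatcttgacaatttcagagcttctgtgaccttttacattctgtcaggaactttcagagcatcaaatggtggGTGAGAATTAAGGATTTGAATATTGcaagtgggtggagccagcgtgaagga
Obox3: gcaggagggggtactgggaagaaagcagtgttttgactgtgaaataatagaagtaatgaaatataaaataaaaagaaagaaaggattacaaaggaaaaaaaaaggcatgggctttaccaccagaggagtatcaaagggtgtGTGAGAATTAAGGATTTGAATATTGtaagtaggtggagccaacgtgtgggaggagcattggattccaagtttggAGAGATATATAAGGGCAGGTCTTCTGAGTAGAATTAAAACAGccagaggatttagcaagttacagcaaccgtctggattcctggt
Obox5: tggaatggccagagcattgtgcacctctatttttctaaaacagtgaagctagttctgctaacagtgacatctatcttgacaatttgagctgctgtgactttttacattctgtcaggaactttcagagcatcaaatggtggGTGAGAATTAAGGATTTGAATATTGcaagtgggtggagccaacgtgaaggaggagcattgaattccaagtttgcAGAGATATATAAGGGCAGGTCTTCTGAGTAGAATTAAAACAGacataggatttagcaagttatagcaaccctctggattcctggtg

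The run of 25 bases was taken as the longest stretch shared by the windows of Obox1, Obox2, Obox3, Obox5 and Obox7. The run of 42 bases was the longest shared by those of Obox1, Obox3, Obox5 and Obox7. The presence of the runs in these windows was thus fixed by the choice. The run of 25 bases was found in 5 of the 32851 RefSeq windows searched on both strands, those of Obox1, Obox2, Obox3, Obox5 and Obox7. The run of 42 bases was found in 4 of them, those of Obox1, Obox3, Obox5 and Obox7. The shorter run began at -98 from the start in Obox1 and at -1 in Obox2, so that the window of Obox2 ended before the place of the longer run. Over their aligned bases, the windows of Obox1 and Obox2 were 100% identical (203 bases), those of Obox1 and Obox5 were 95.8% identical (285 bases), those of Obox5 and Obox7 97.1% (273 bases) and those of Obox1 and Obox3 93.3% (164 bases). The window of Obox3 aligned with that of Obox2 over 62 bases (90.3%) and with that of Obox5 over 175 bases (92.6%). On both strands, TATATAAG was in 4 of the 5 Obox windows against 1.01% of all windows. In these 4 it lay within the shared run of 42 bases, so that they are not independent cases and nothing is read from this count. GGATTA, the core bound by Crx and Otx factors, was in the window of Obox3 alone, against 7.06% of all windows. The homeodomain cores TAATTG and TAATTA were in none of the 5, against 8.00% and 5.29%, and the E-box CANNTG was in 4 of 5 against 72.3%. These matches describe letters in a window, and the RefSeq starts of the genes differ relative to the shared runs.

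Obox1 had the most reads of the members in oocytes. In the 30 secondary-antral oocytes by DRaqL-SC3-seq it was at 3153 ± 2417 RPM (SD, n = 30), from 10.6 through a median of 2755 to 7669. In the 14 primary oocytes it was at 50.7 ± 42.7 RPM (SD, n = 14), from 3.31 through a median of 39.5 to 159. The ranges overlapped through 2 of the secondary-antral oocytes, and the other 28 lay above all primary ones. The ratio of the summed counts was 63.5 (95% interval 59.7 to 67.5, counting error only, as for all such intervals).

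Obox2 and Obox5 had the same pattern at lower levels. Obox2 was at 1595 ± 1225 RPM (5.30 to 3871) against 24.9 ± 21.6 (1.32 to 79.9), a ratio of 65.4 (60.01 to 71.5). Obox5 was at 652 ± 468 RPM (3.31 to 1640) against 12.3 ± 10.4 (0 to 36.9), a ratio of 53.9 (47.7 to 61.2). For both genes 28 of 30 secondary-antral oocytes lay above all primary ones.

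Obox3, which the embryo also transcribes, was lower. It was at 90.1 ± 92.3 RPM (0.662 through a median of 61.5 to 342) in secondary-antral oocytes and at 3.66 ± 1.49 RPM (1.98 through 3.60 to 6.87) in primary oocytes, a ratio of 25.5 (20.2 to 32.5). Of the secondary-antral oocytes, 25 lay above all primary ones. Obox6 was close to absent, with 3 reads over 30 secondary-antral oocytes and 10 reads over 14 primary oocytes, a ratio of 0.134 (0.0236 to 0.519) that rests on these few reads.

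On the log2 (RPM+1) scale, the mean difference between the stages in DRaqL-SC3-seq was 5.55 for Obox1, 5.55 for Obox2, 5.41 for Obox5, 3.37 for Obox3 and -0.37 for Obox6. 4 of 5 members were higher in secondary-antral oocytes by at least 2 on this scale (a 4-fold difference), as were 8.1% of the 20696 genes with reads. The median of the members was 5.41 and that of all genes was 0.04. The members were chosen on these cells, so nothing is read from this count. The reads of the 5 members together made 5490 ± 4161 RPM in secondary-antral oocytes (19.9 to 13457) and 92.1 ± 74.7 RPM in primary oocytes (6.61 to 281). The 2 secondary-antral oocytes within the primary range were replicate 19, at 19.9 RPM, and replicate 18, at 163 RPM. Replicate 19 also had the lowest sum of 14 oocyte marker genes in its group, 23421 RPM, and replicate 18 had 32108 RPM. The link of these marker levels to the low Obox reads was not tested.

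**Figure D1:**
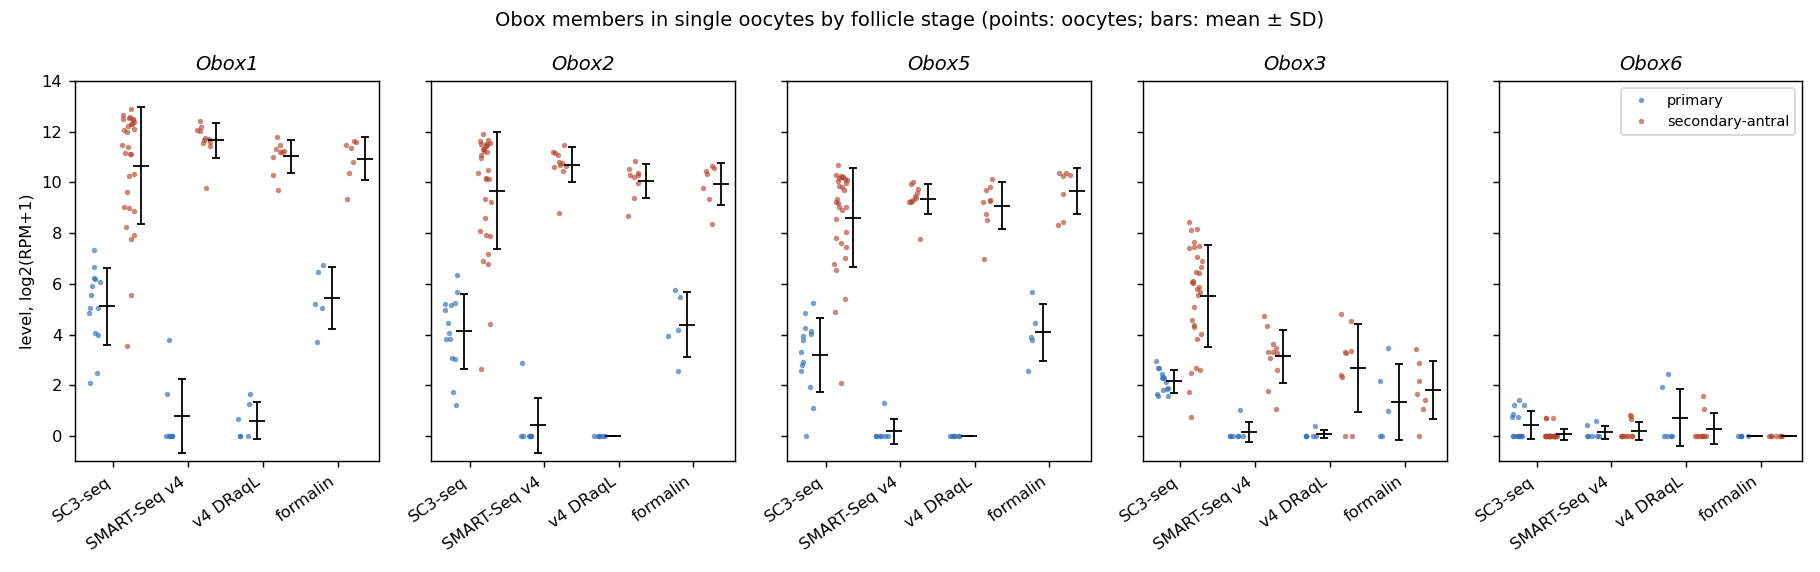
Level of Obox1, Obox2, Obox5, Obox3 and Obox6 in single oocytes, 1 panel per gene, as log2 (RPM+1) on the vertical axis against dataset and follicle stage on the horizontal axis; each point is 1 oocyte and bars are the mean ± SD over oocytes. In the first 3 panels the secondary-antral oocytes of all 4 datasets lie far above the primary ones, except for 2 oocytes of DRaqL-SC3-seq, whereas Obox3 differs less and Obox6 stays near 0.

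Oocytes of 3 further datasets were not used to choose the members. By SMART-Seq v4, Obox1 was at 3503 ± 1202 RPM in 11 secondary-antral oocytes (878 through a median of 3393 to 5536) and at 2.15 ± 4.80 RPM in 7 primary oocytes, of which 2 had reads (0 to 12.9). Every secondary-antral oocyte was above every primary one, and the ratio was 1358 (940 to 2044). Of the 28 Obox1 reads of the primary oocytes, 26 were in replicate 2, and without this oocyte the ratio was 15351 (4249 to 126760), which rests on 2 reads. Obox2 was at 1808 ± 628 RPM in the former and had 13 reads among the latter, all in replicate 2. Obox5 was at 697 ± 220 RPM and had 3 reads there, in the same oocyte. Obox3 was at 9.93 ± 7.09 RPM (1.09 to 25.6) against 1 read.

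With DRaqL added to the kit, Obox1 was at 2250 ± 815 RPM in 9 secondary-antral oocytes (823 through 2371 to 3581) and at 0.689 ± 0.896 RPM in 6 primary oocytes (0 through 0.305 to 2.14). The groups did not overlap. No primary oocyte had a read on Obox2 or Obox5, so that the secondary-antral level was at least 2744-fold higher for Obox2 and at least 1447-fold higher for Obox5, taking 3 counts over the primary group as the floor. Obox3 was at 9.42 ± 9.45 RPM (0 to 27.1) against 1 read, and Obox6 had 6 reads in either group. Between the kits, the summed level of the members in secondary-antral oocytes was 0.676 (0.669 to 0.684) as high with DRaqL as without.

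Formalin-fixed oocytes showed the difference at the size seen with DRaqL-SC3-seq. Obox1 was at 35.6, 32.05, 105.6, 12.2 and 87.5 RPM in the 5 primary oocytes and at 2214 ± 972 RPM in the 7 secondary-antral ones (653 through 2636 to 3203). All 7 lay above all 5, and the ratio was 61.6 (52.6 to 72.5). Obox2 was at 1098 ± 483 RPM against 26.6 ± 20.5, a ratio of 64.3 (51.2 to 81.9), and Obox5 at 935 ± 457 RPM against 20.7 ± 17.6, a ratio of 66.8 (52.1 to 87). Obox3 was at 3.50 ± 3.41 RPM and 2.92 ± 4.26 RPM, which differed by less than the spread over cells, and Obox6 had no reads. A count of 0 allows up to 3 reads in each group.

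By the same 4-fold rule, 4 of 5 members were higher in secondary-antral oocytes by SMART-Seq v4 (against 10.8% of genes with reads), 4 of 5 by SMART-Seq v4 with DRaqL (against 13%) and 3 of the 4 with reads after formalin (against 8.49%). The medians of the members were 9.17, 9.08 and 5.53 on the log2 scale against 0.19, 0.12 and -0.01 for all genes. The members called were Obox1, Obox2, Obox5 and, before formalin, Obox3. Obox7 went with them, with differences of 4.30, 6.64, 6.43 and 4.88 in the 4 datasets. Obox8 differed by -0.78, 0.05, 1.50 and 0.41.

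Other groups of genes moved in their own ways between the stages. Of 8 transcription factors of oocytes, none was higher by 4-fold in DRaqL-SC3-seq and 3 were lower: Figla and Sohlh1, which drive the gene program of early follicles, and Sohlh2, the partner of Sohlh1. On the log2 scale, Figla went from 8.46 to 6.23, Sohlh1 from 8.70 to 3.00 and Sohlh2 from 5.59 to 3.02. In each of the other 3 datasets 3 of the 8 were lower as well, and 1 was higher by SMART-Seq v4 with DRaqL. Nobox, an oocyte homeobox gene needed for early follicles, was at 9.32 in primary and 9.62 in secondary-antral oocytes, and Lhx8, another homeobox gene of early oocytes, at 8.28 and 7.82. Of 4 homeobox genes related to Crx, Otx1 alone was higher by 4-fold, at 0.495 RPM in primary and 30.9 RPM in secondary-antral oocytes. Of 6 genes of the 2-cell-stage embryo, 5 had reads, and the mean log2 (RPM+1) of all 5 was higher in secondary-antral oocytes. Tcstv3 alone was higher by 4-fold on that scale, at 0.130 and 12.9 RPM. The rule is hard to reach for genes with few reads, such as Zscan4d at 0.0305 and 2.98 RPM. Of 14 oocyte markers, between 9 and 10 were higher by 4-fold in the 4 datasets.

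The reads of Obox1 and Obox2 kept to nearly 1 ratio in oocytes. Over all secondary-antral oocytes by DRaqL-SC3-seq there were 0.506 Obox2 reads per Obox1 read, and from 0.444 to 0.532 in single oocytes. The 12 primary oocytes with at least 20 reads on the pair gave 0.408 to 0.515. The pooled ratio was 0.517 by SMART-Seq v4 with and without DRaqL, 0.496 after formalin, 0.513 in serial sections, 0.484 in dissociated oocytes and 0.471 in the captured oocytes of the same mouse, where single oocytes ranged from 0.355 to 0.537. Over 44 oocytes by DRaqL-SC3-seq, Pearson's r of the log2 levels of the pair was 0.9998. This is a description of genes with nearly identical 3′ ends in shared libraries.

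**Figure D2:**
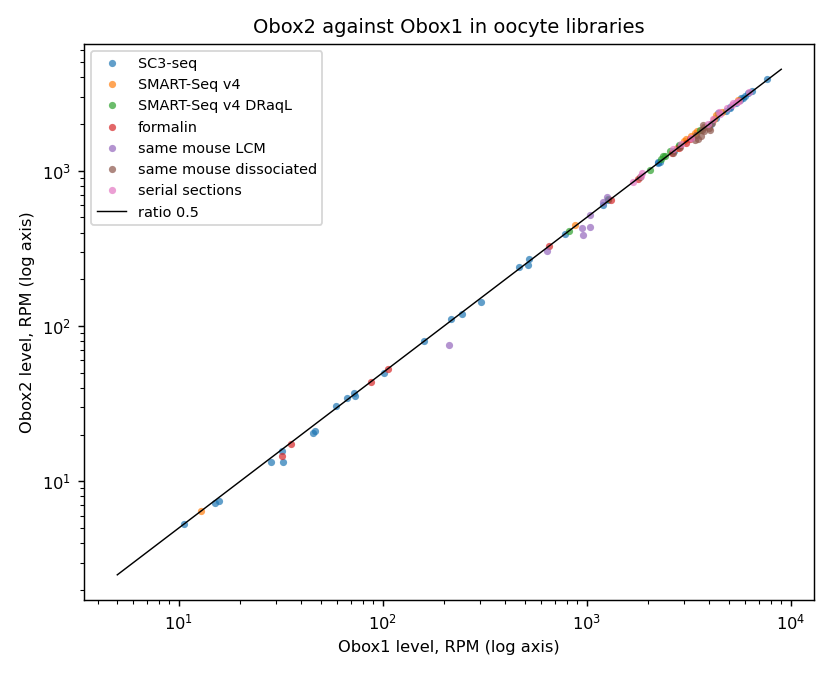
Level of Obox2 against level of Obox1, both in RPM on logarithmic axes, in single oocyte libraries with at least 20 reads on the pair. Each point is 1 library, coloured by dataset, and the line marks a ratio of 0.5 of Obox2 to Obox1. The points of all datasets follow the line over the whole range of levels.

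The last exons of the pair had another ratio in libraries with Y-shaped adapters. In the tables of exons and junctions, where a read that maps to several places counts at each, the last exon of Obox1 (chr7:15556151-15556866) had 9732, 6961, 643, 10563 and 4159 reads in the 5 oocytes with Y-shaped adapters. The last exon of Obox2 (chr7:15397834-15398545) had 10279, 7094, 412, 11533 and 4312. The ratio was 1.06, 1.02, 0.641, 1.09 and 1.04 in the 5 oocytes, and lowest in replicate 3, which had the fewest reads. These libraries differ from those above in how they were made, in the stretch counted and in the use of reads with several places, and the part of each in the ratio was not tested. The last exon of Obox5 (chr7:15758539-15759800) had 5423, 3670, 577, 6836 and 2530 reads, that of Obox7 had 34 to 1574, that of Obox3 had 6 to 54 and that of Obox6 had 0 to 2. Per kilobase of the exon, Obox1 had 898 to 14753 reads and Obox5 457 to 5417. Reads across exon junctions were present for Obox1 (19 to 1001 per oocyte), Obox2 (33 to 1099) and Obox5 (10 to 341).

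Obox5 and Obox3 had less constant ratios to Obox1. There were 0.207 Obox5 reads per Obox1 read in secondary-antral oocytes by DRaqL-SC3-seq, 0.199 by SMART-Seq v4, 0.273 with DRaqL added, 0.432 after formalin, 0.204 in serial sections, 0.375 in dissociated oocytes and 0.586 in captured oocytes of the same mouse. The last 2 values came from 1 mouse. Obox3 reads per Obox1 read were 0.0281 by DRaqL-SC3-seq and 0.0679 in serial sections, against 0.00281 by SMART-Seq v4 and 0.00186 after formalin. Across the 44 oocytes, r of the log2 levels was 0.984 for Obox1 with Obox5, 0.940 for Obox1 with Obox7 and 0.901 for Obox1 with Obox3, while within the 14 primary oocytes the last value was 0.0792. Reads on 41 other Obox rows of the tables, most of them pseudogenes by name, made up 0.323% of all family reads in serial sections, 0.774% by SMART-Seq v4 and 2.21% after formalin in secondary-antral oocytes. Their share was higher in several groups with few reads on members, though it was 1.47% in non-neighboring granulosa cells after formalin (1 beside 61). It was 32.9% in primary oocytes by SMART-Seq v4 (23 reads beside 47 on members), 45.5% in those with DRaqL added (10 beside 11), 51.6% in non-neighboring granulosa cells with DRaqL added (99 beside 93) and 9.94% in non-neighboring pools (82 beside 733).

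Sections of the same oocyte gave closer levels than sections of different oocytes. In 16 serial sections of 8 secondary-antral oocytes by DRaqL-SC3-seq, Obox1 was at 3992 ± 1461 RPM (1685 through 4316 to 6267), Obox2 at 2049 ± 756, Obox5 at 802 ± 327 and Obox3 at 275 ± 98.6 RPM, and Obox6 had 6 reads in all. The summed level differed between the sections of 1 oocyte by a median of 0.30 on the log2 scale (0.07 to 0.77 over 8 oocytes). Sections of different oocytes differed by a median of 0.64 over all such pairs, and by up to 1.91. For Obox3 the medians were 0.20 and 0.60. No test was made, since the pairs share sections.

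In the mouse that gave both kinds of cells, dissociated oocytes had more Obox reads than captured ones. Obox1 was at 3462 ± 623 RPM in 14 dissociated oocytes (1829 through 3662 to 4130) and at 911 ± 339 RPM in 8 captured ones (211 through 998 to 1261), and the groups did not overlap. The ratio was 3.63 (3.51 to 3.74) for Obox1, 3.72 (3.56 to 3.90) for Obox2, 2.32 (2.22 to 2.42) for Obox5 and 1.09 (0.643 to 1.82) for Obox3, whose interval holds 1. Summed, the members were at 6415 ± 1058 and 1933 ± 760 RPM. The dissociated oocytes were labelled as grown and read by Smart-seq2. The captured ones were labelled as secondary-antral and read by DRaqL-Smart-seq2. Dissociation or capture, the way the cDNA was made and the stage cannot be told apart here.

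Genes with the pattern most like that of the members across the 44 oocytes by DRaqL-SC3-seq were found by Pearson's r with the summed Obox level, among 8345 genes whose average level, as log2 (RPM+1), reached 4 in 1 of the stages. The median r was 0.12, and 77 genes were above 0.9. The highest were Oosp3, an oocyte-secreted protein (r = 0.964), Gm813 (0.963), Cphx2, a homeobox gene of oocytes and early embryos (0.960), Gm10436 (0.959) and Ctsh, the lysosomal protease cathepsin H (0.955). In 33 oocytes by SMART-Seq v4, 18 of them without DRaqL and 15 with it, the same 5 genes had r of 0.982, 0.988, 0.980, 0.969 and 0.937. The lowest were Maged1, a melanoma antigen family gene (-0.907), 3110043O21Rik (-0.907), Zfp644, a zinc finger gene (-0.905), 4930562C15Rik (-0.901) and Aes, a corepressor of the Groucho family (-0.899), with -0.866, -0.682, -0.708, -0.887 and -0.530 in those 33 oocytes. All these oocytes share the order of the stages, and r is given as a description.

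Pools of about 10 granulosa cells were the replicated samples in which position could be tested, in 7 neighboring and 7 non-neighboring pools with 3811945 to 8259281 reads each. No label says that the pools came from separate mice, so that p-values measure the spread between these pools. Obox1 was at 157, 150, 94.4, 1313, 1255, 1086 and 160 RPM in the neighboring pools (replicates 1 to 7). It was at 5.52, 6.20, 2.88, 0, 47.9, 5.77 and 0 RPM in the non-neighboring pools. The groups did not overlap, and 3 neighboring pools were above 1000 RPM. In a fit of all protein-coding genes with edgeR's quasi-likelihood test and Benjamini-Hochberg adjustment, Obox1 was higher in neighboring pools by 5.95 on the log2 scale (SE 1.19, adjusted p = 0.0287).

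Obox2 was at 76.5, 78.03, 52.8, 665, 599, 579 and 96.3 RPM in the neighboring pools and at 2.88, 3.198, 0.524, 0, 26.7, 2.89 and 0 RPM in the others, again without overlap. It was higher in neighboring pools by 5.90 (SE 1.22, edgeR adjusted p = 0.0316). Since it is uncertain which of the 2 genes a read came from, the 2 results cannot be taken as independent. Obox5 was at 15.3, 24.6, 44.7, 231, 466.1, 220 and 0.165 RPM in the neighboring pools, of which replicate 7 had 1 read. It was at 1.44, 3.60, 0.131, 0, 0.528, 0.262 and 0 RPM in the non-neighboring pools, and the difference was 7.25 (SE 1.52, edgeR adjusted p = 0.0336).

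Obox3 did not pass the test. It was at 13.1, 14.7, 3.30, 77.4, 59.1, 17.6 and 3.63 RPM in the neighboring and at 0.720, 1.00, 0, 4.36, 0.352, 20.7 and 1.41 RPM in the non-neighboring pools, where replicate 6 reached the neighboring range. The difference was 2.57 (SE 1.31, edgeR adjusted p = 0.998). Obox6 had 1 read in all neighboring and 5 reads in all non-neighboring pools and was too low to be tested. So 3 of the 4 members tested were called higher, against 0.453% of the 9704 genes tested. All 44 genes called were higher in neighboring pools, and the median over all genes was -0.01.

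The oocyte markers moved with the Obox genes in these pools. Of 14 oocyte markers 13 were tested and 8 were higher, with a median difference of 6.20, against none of the 7 granulosa markers tested. The summed oocyte markers were at 1045, 1521, 819, 5167, 7237, 5802 and 684 RPM in the neighboring pools and at 135, 150, 11.1, 56.3, 50.7, 42.8 and 1.09 RPM in the non-neighboring ones. The 3 pools highest in Obox1 were the 3 highest in these markers. Granulosa markers summed to 4074 to 11269 RPM and to 2798 to 15359 RPM. Theca and interstitial markers reached 1481 RPM and blood markers 1700 RPM in a non-neighboring pool, and 324 and 16.5 RPM in a neighboring one. The part of oocyte RNA in the Obox reads of granulosa pools was not tested.

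The calls rested on few pools. Leaving out each of the 14 pools in turn, all 3 genes stayed higher, but Obox1 kept its call in 7 of 14 fits (edgeR adjusted p 0.0156 to 0.0924), Obox2 in 5 (0.0156 to 0.107) and Obox5 in 5 (0.0154 to 0.135). Obox1 lost it without neighboring replicate 4, 5 or 6 or without non-neighboring replicate 1, 3, 6 or 7. Obox2 lost it without these and without non-neighboring replicate 2 or 4, and Obox5 without those of Obox1 and without non-neighboring replicate 4 or 5. With all genes of the table in the fit, the edgeR adjusted p was 0.0546 for Obox1 and Obox5 and 0.0623 for Obox2. With the pool number as a block, Obox1, Obox2 and Obox5 did not pass the threshold.

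**Figure D3:**
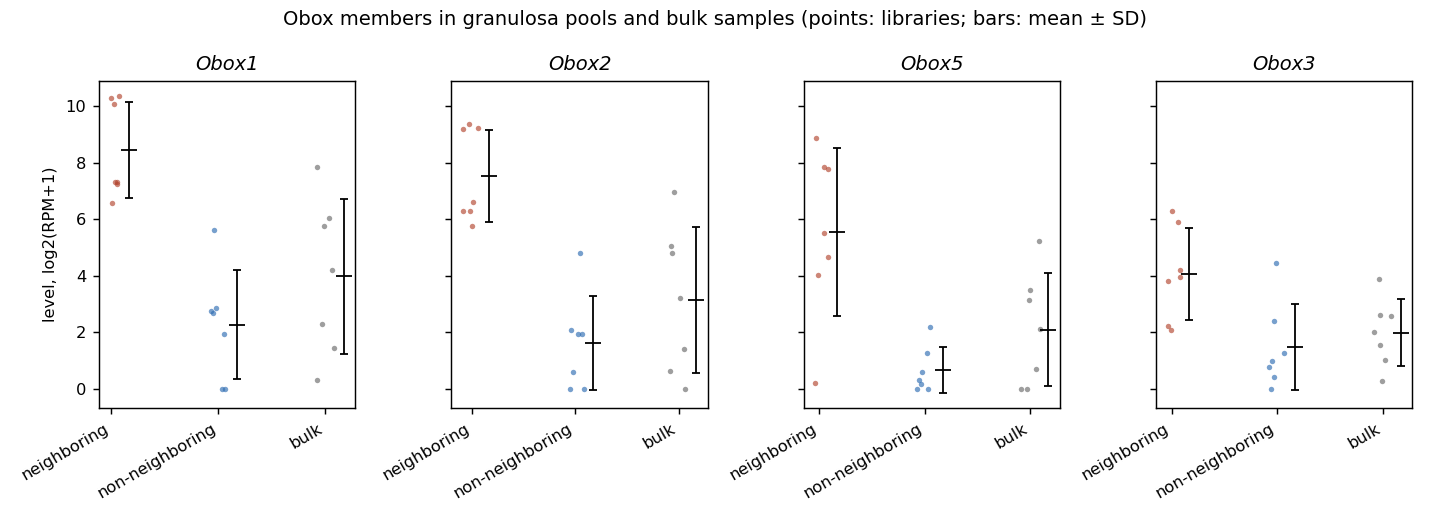
Level of Obox1, Obox2, Obox5 and Obox3 in pools of about 10 granulosa cells and in bulk granulosa samples, as log2 (RPM+1) on the vertical axis; each point is 1 library, in 7 neighboring pools, 7 non-neighboring pools and 7 bulk samples, with bars for the mean ± SD. Neighboring pools lie above non-neighboring ones without overlap for Obox1 and Obox2, and bulk samples spread over the ranges of both.

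Bulk granulosa samples spread over both kinds of pools. Obox1 was at 17.4, 3.93, 64.4, 231, 52.8, 1.75 and 0.261 RPM in the 7 bulk samples, Obox2 at 8.31, 1.66, 31.9, 123, 27.1, 0.537 and 0 RPM, Obox5 at 3.36, 0.621, 10.2, 36.9, 7.88, 0 and 0 RPM, and Obox3 at 1.92, 0.207, 5.10, 13.7, 5.04, 3.09 and 1.05 RPM. The same sample was the highest for all 4 genes, and Obox6 had 6 reads in all. Summed oocyte markers in these samples were at 197, 36.7, 1011, 1506, 420, 5.77 and 3.92 RPM. Against the neighboring pools, in 1 fit of all 21 libraries, Obox1 differed by -3.51 (SE 1.19, edgeR adjusted p = 0.256), Obox2 by -3.49 (adjusted p = 0.304), Obox5 by -4.09 (0.263) and Obox3 by -2.61 (0.526). 0 of 4 members were called lower, against 0.0168% of the 11917 genes tested, 2 of 24 genes called. Against the non-neighboring pools, Obox1 differed by 2.47 (SE 1.14, edgeR adjusted p = 0.847), Obox2 by 2.44 (0.894), Obox5 by 3.21 (0.745) and Obox3 by -0.01 (1.00). Here 0 of 4 members and 0% of genes were called by edgeR, with 674 genes at an unadjusted p under 0.05 and 79 called by DESeq2. These p-values do not show that bulk samples and pools were alike. In bulk samples and pools, fewer cells with a transcript and less of it per cell cannot be told apart.

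Single granulosa cells had Obox reads in both positions, and cells differed widely. By DRaqL-SC3-seq, 25 of 31 neighboring and 20 of 26 non-neighboring cells had reads on a member. Their summed level had a median of 499 RPM (0 to 8418) in neighboring cells and of 7.19 RPM (0 to 6035) in non-neighboring cells. 14 neighboring and 2 non-neighboring cells were above 1000 RPM, and replicate 22 of the non-neighboring cells held 58.5% of the reads of its group. On the log2 (RPM+1) scale the mean was 7.22 ± 4.52 against 3.85 ± 3.49, a difference of 3.37. Obox1 differed by 3.44, Obox2 by 3.33, Obox3 by 2.13, Obox5 by 1.82 and Obox6 by -0.12. So 3 of 5 members were higher in neighboring cells by 4-fold, as were 0.194% of genes, in the very cells the members were chosen on. Within the cells with the lower label numbers (22 and 20) the summed difference was 3.54, and within those with the higher numbers (9 and 6) it was 1.95. With 3 further cells that the authors set apart as mixed in profile, it was 3.19. Of these, the neighboring cell was at 1966 RPM and the 2 non-neighboring cells were at 148 and 448 RPM.

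The other 7 datasets were not used to choose the members. In each of them the mean summed level was higher in neighboring cells. The difference on the log2 scale was 5.01 by LCM-seq (8.75 ± 1.94 in 17 cells against 3.74 ± 2.55 in 20). It was 4.57 by SMART-Seq v4 with DRaqL (6.42 against 1.85, in 20 and 19 cells), 3.47 by DRaqL-Smart-seq2 (6.81 against 3.34, in 15 and 19) and 2.96 after formalin (6.17 against 3.22, in 12 and 12). It was smaller by SMART-Seq v4 (1.15, 3.97 against 2.82, in 17 and 17) and in the mouse that gave both kinds of cells, at 1.37 for captured cells (4.38 against 3.01, in 35 and 35) and 1.14 for dissociated cells (4.95 against 3.81, in 14 and 21). By SMART-Seq v4 the median summed level was 2.08 RPM in neighboring and 1.85 RPM in non-neighboring cells, and 8 and 6 cells had no reads. The medians were 28.2 and 6.26 RPM in captured cells of the same mouse (9 and 8 without reads). They were 37.5 and 21.2 RPM in dissociated cells (4 and 5 without reads). By SMART-Seq v4 with DRaqL they were 184 and 2.29 RPM, by LCM-seq 456 and 9.86, by DRaqL-Smart-seq2 160 and 3.47, and after formalin 150 and 7.27. Among the dissociated cells, the study found some with profiles mixed with those of oocytes, more often in attached cells. These mixed cells were kept here.

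By the 4-fold rule, 3 of 5 members were higher in neighboring cells by LCM-seq (against 2.62% of genes), SMART-Seq v4 with DRaqL (1.11%), DRaqL-Smart-seq2 (1.22%) and after formalin (3.11%), in each case Obox1, Obox2 and Obox5. 0 of 5 were by SMART-Seq v4 (0.655%) and in captured cells of the same mouse (0.412%), and 0 of the 4 with reads in dissociated cells (0.165%). Obox3 differed by 0.13 to 1.33 in these 7 datasets, and Obox6 by -0.41 to 0.20 in the 6 where it had reads. Groups overlapped in all 7, and the ratio of summed counts ran from 4.33 (4.09 to 4.59) by SMART-Seq v4 to 52.1 (42.4 to 64.7) with DRaqL added.

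In each of these 7 datasets the ratio moved by over 1.5 times when 1 cell was left out, and it stayed above 1. By SMART-Seq v4 it was 17.2 (15.6 to 19.1) without non-neighboring replicate 6, and with DRaqL added it was 79.6 without non-neighboring replicate 18. In the mouse that gave both kinds of cells, it went from 27.5 to 3.53 for captured cells without neighboring replicate 22 and from 5.52 to 2.27 for dissociated cells without neighboring replicate 3. The captured cells had the largest such shift of the 7 datasets. The ratio went from 18.02 to 30.4 by LCM-seq without non-neighboring replicate 17 and from 6.45 to 9.69 by DRaqL-Smart-seq2 without non-neighboring replicate 7. After formalin it went from 17.8 to 11.8 without neighboring replicate 2 and to 26.9 without non-neighboring replicate 2.

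**Figure D4:**
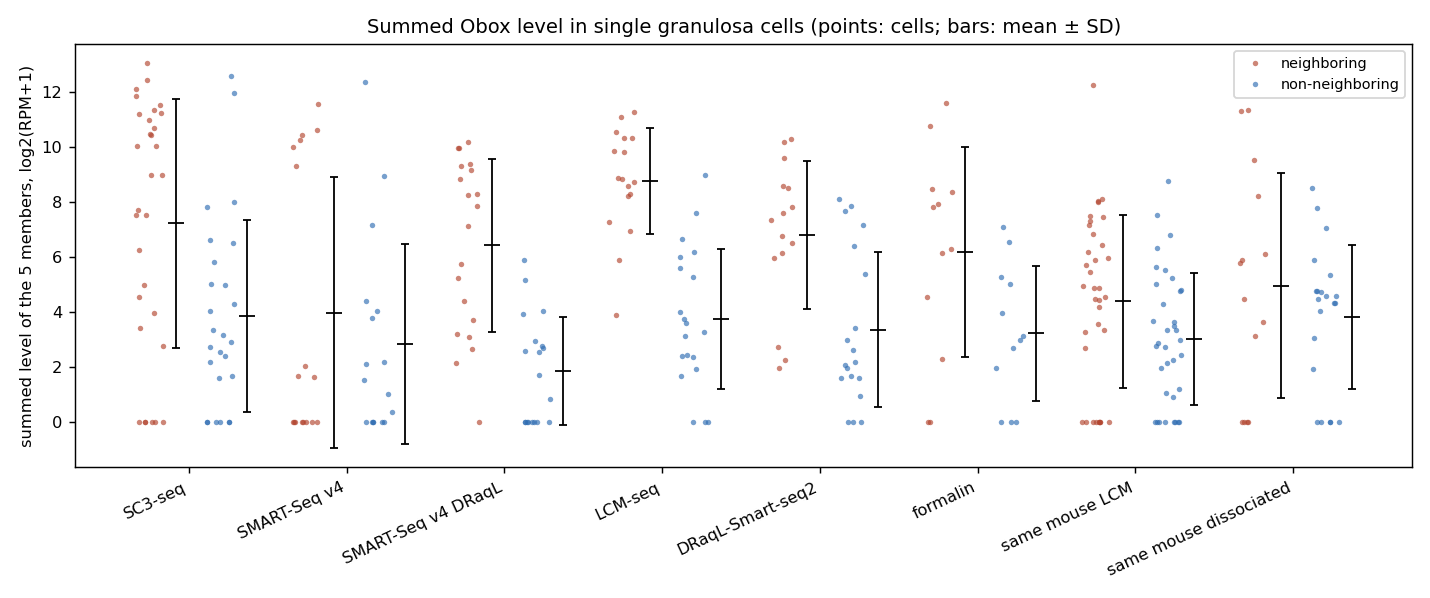
Summed level of the 5 Obox members in single granulosa cells, as log2 (RPM+1) on the vertical axis against dataset and position on the horizontal axis; each point is 1 cell and bars are the mean ± SD over cells. Neighboring cells have the higher mean in all 8 datasets, and in each dataset the cells of the 2 positions overlap.

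Single cells carried much of the reads in several groups. Replicate 6 of the non-neighboring cells by SMART-Seq v4 was at 5213 RPM and held 75.3% of the reads of its group. Replicate 22 of the captured neighboring cells of the same mouse was at 4890 RPM and held 88.2%, with 30375 RPM of oocyte markers, against 18761 to 33356 RPM in the 8 captured oocytes of that mouse. Without the highest cell of each position, the differences ran from 0.88 to 5.13 in the 8 datasets and stayed above 0. In the same mouse, cells whose sample name held an S number that no oocyte shared gave smaller differences. These were 0.78 for captured cells (25 and 23) and 0.23 for dissociated cells (8 and 7), against 1.37 and 1.14 over all cells. The S number was taken to mark a sequencing pool, which is an inference from the name. The sequencing pool and the index were not tested as a source of these reads.

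The oocyte markers moved with the Obox reads in single granulosa cells too. Their summed level had a median of 1354 RPM in neighboring and 27.6 in non-neighboring cells by DRaqL-SC3-seq, 1452 and 13.5 by LCM-seq, 577 and 19.1 by DRaqL-Smart-seq2, 1093 and 60.4 after formalin, 326 and 3.08 by SMART-Seq v4 with DRaqL, and 642 and 45.6 without. In the mouse that gave both, it was 374 and 96.7 for captured cells and 134 and 182 for dissociated cells. The mean of all 14 markers was higher in neighboring cells by DRaqL-SC3-seq, and 6 of them were by 4-fold. None of the 10 granulosa markers was. Pearson's r of the summed Obox level with the markers over the cells of a dataset was between 0.506 and 0.879, in cells that share libraries and depth. The study set cells with mixed profiles apart before its comparison by DRaqL-SC3-seq. It held that oocyte genes in the remaining neighboring cells were gene-specific and not the result of such mixing. Gap junctions between oocyte and granulosa cells were, in its reading, the most likely source. The study also could not exclude transcripts of adjacent cells in a captured cell. The part of either source in these reads was not tested.

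mESCs carried Obox6 and hardly any other member. Pluripotency markers, 5 of 5, had reads in these cells. Nanog, Sox2, Zfp42 and Esrrb had reads in all 81 mESCs, at means of 7.48 to 9.22 on the log2 (RPM+1) scale. Pou5f1 had reads in 65 of them, at a mean of 2.28. Obox6 had 96.8% of the members' reads in 45 freshly dissociated mESCs and 96.5% in 36 mESCs captured from sections of a cell block. It had 569 reads in 21 of the fresh cells (0 through a median of 0 to 66.4 RPM) and 442 reads in 11 of the captured cells (0 through 0 to 111.01 RPM). Most of these reads lay in few cells: 6 fresh cells with at least 10 reads, at 11.3 RPM or more, held 92.6% of them, and 3 captured cells, at 7.57 RPM or more, held 97.5%. Pooled over cells the level was 6.40 RPM in fresh and 6.28 RPM in captured cells, with a ratio of fresh to captured of 1.02 (0.899 to 1.158). The interval of this ratio covers counting error alone, and 1 captured cell, with 382 reads, held most of the reads of its group. Obox1 had 9 and 2 reads, Obox3 9 and 14, Obox5 1 and 0, and Obox2 none.

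**Figure D5:**
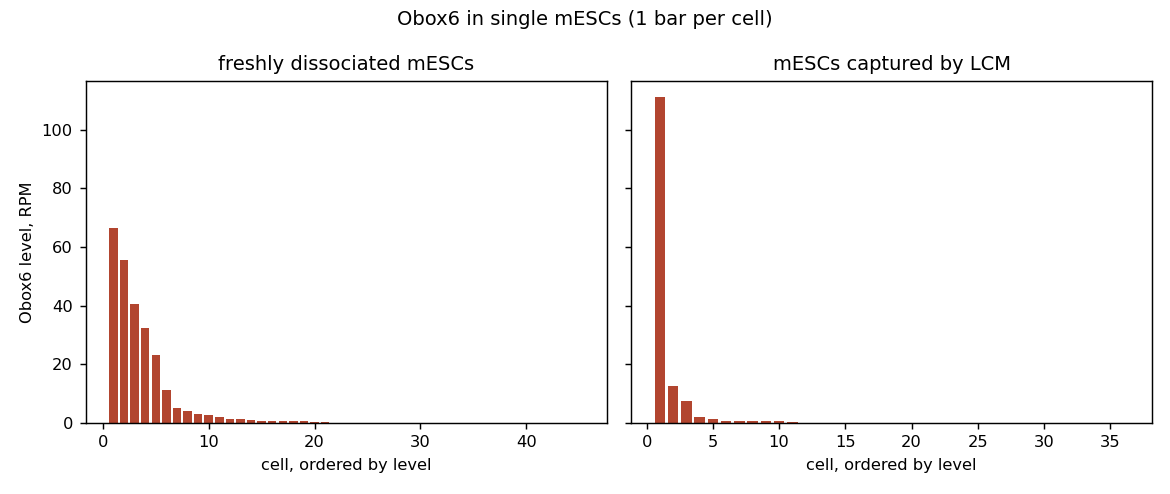
Obox6 in single mESCs, with freshly dissociated cells in one panel and captured cells in the other; each bar is 1 cell in falling order, and the vertical axis is RPM from 0. A few cells of each type carry most of the reads, up to 66.4 RPM in fresh and 111.01 RPM in captured cells, and most cells are at 0.

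No other gene looked at followed the level of Obox6 closely over mESCs. Over 81 mESCs, Pearson's r of the log2 level of Obox6 was between -0.14, for Zfp352 of the 2-cell stage, and 0.22, for Esrrb of the pluripotency network, over the genes with reads in the lists of 2-cell, pluripotency and Crx-related genes. Zscan4c, a gene that marks 2-cell-like cells, had reads in 2 of the 81 cells, Zfp352 in 9 and Crx in 4. For genes with reads in so few cells, r says little. The cells high in Obox6 were not compared with the rest. Crxos, a homeobox gene that lies beside Crx on the other strand, was at 86.2 RPM in fresh and 99.6 RPM in captured cells. The libraries with Y-shaped adapters were made from amplified cDNA of single cells, which may be cells already counted above. Whether the fresh and LCM labels of their mESCs match the names of the data columns is uncertain. In these libraries, the last exon of Obox6 (chr7:15833241-15833950) had 143 reads in the mESC library labelled LCM replicate 4, 8 in the one labelled fresh replicate 5, and 0 in the other 8. These levels stand against 3, 6 and 0 reads of Obox6 in all secondary-antral oocytes by DRaqL-SC3-seq, by SMART-Seq v4 and after formalin, where it had the fewest reads of the 5 members. In primary oocytes by SMART-Seq v4 with DRaqL, where members had 11 reads in all, Obox6 had 6 of them.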

How the data were processed

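The series held 577 libraries, 562 of them in 8 kinds of gene tables and 15 in tables of exons and junctions. The authors trimmed reads with fastp 0.20.0 and cutadapt 1.16, aligned them to GRCm38 with HISAT2 2.1.0 and counted best-matched reads near the 3′ ends of genes with HTSeq 0.10.0. For exons and junctions they used featureCounts 2.0.1 with multi-mapped reads counted. The deposited values are raw read counts, without normalization and without molecular identifiers. Spike-in tables were not used here.

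Here, counts were divided by the total over protein-coding genes (RPM) and transformed as log2 (RPM+1). A group of single cells counted as 1 sample: means ± SD are over cells, ratios of summed counts carry exact 95% intervals, and the floor for a count of 0 was 3 counts, all for counting error only. Pools and bulk samples were tested with edgeR 4.0.16 in R 4.3.3 (TMM, filterByExpr, quasi-likelihood F-test, two-sided, Benjamini-Hochberg, threshold 0.05), with DESeq2 1.42.0 as an alternative, and the SE is the log2 difference divided by the square root of F. In data simulated for the pools, the test recovered 0% of 200 genes changed 4-fold and 76% of those changed 32-fold, among 9245 and 9253 genes. For bulk samples against neighboring pools it recovered 7.5% and 70.5%, among 11588 and 11526 genes. Other values came from Python 3.11.15 with pandas 2.3.3, scipy 1.17.1 and Biopython 1.88, with seed 20240607.

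The members and the gene lists were chosen with earlier results of these data known. The text names the members, other genes starting with Obox, fixed lists of oocyte transcription factors, Crx-related and 2-cell-stage genes and cell type markers, and the 5 genes most and least like the members. Sequences are from RefSeq (GRCm38.p6), where Obox1, Obox2, Obox3, Obox5 and Obox7 matched by symbol, with no entry for Obox6. Alternatives were other scalings, tools, filters, pseudocounts, denominators, depths and subsets of cells, and leaving out each pool or bulk sample. Leaving out the highest cell of each position, and the library with most reads of a group from a ratio, was added after the data were seen.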

Additional observations from a re-analysis of the deposited data

Results flagged for a closer look

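In groups of 4 to 10 libraries, 51 combinations of group and gene were looked at for a single library that stood far from the rest, and 9 were found. Several of the 9 share 1 library, and in some the other libraries had no reads. The count is therefore not set against a rate by chance. No cause was tested for any of the 9.

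In the SMART-Seq v4 primary oocytes, replicate 2 had the highest summed level of the members, 4.48 on the log2 (RPM+1) scale (21.3 RPM, 43 reads), against a group median of 0.43, and the highest Obox2, 2.9 (6.44 RPM, 13 reads), where the other 6 oocytes had no Obox2 read. In the non-neighboring pools, replicate 5 had the highest Obox2, 4.79 (26.7 RPM, 152 reads), against a median of 1.96.

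In the captured secondary-antral oocytes of the same mouse, replicate 8 was the lowest of 8 oocytes. Its summed level was 8.65 (399 RPM) against a median of 11.01, with Obox1 at 7.73 (211 RPM), Obox2 at 6.25 (75.01 RPM) and Obox5 at 6.82 (111.6 RPM).

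In the mESC libraries with Y-shaped adapters, the last exon of Obox6 stood out in the library labelled LCM replicate 4, at 7.17 on the log2 (reads+1) scale (143 reads), and in the library labelled fresh replicate 5, at 3.17 (8 reads). The other 4 libraries of each label had no read there.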

How the results depend on the processing

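Of the genes tested between neighboring and non-neighboring pools, 0.453% (44 genes) were called in the fit as reported, 1.2% with DESeq2, 0.94% in a joint fit with the bulk samples, 0.294% (56 genes) without a filter on low counts, 0.288% (36 genes) in all genes of the table and between 0.0296% and 0.567% (3 to 56 genes) without 1 pool. DESeq2 gave adjusted p-values of 7.79e-08, 2.03e-07, 2.60e-08 and 0.572 for Obox1, Obox2, Obox5 and Obox3. Between bulk samples and neighboring pools, 0.201% (24 genes) became 2.22% (264 genes) with DESeq2, 0 without a filter on low counts (edgeR), 0.0267% (3 genes) with the 2 groups alone and between 0 and 0.486% (59 genes) without 1 bulk sample. By DESeq2, Obox1 and Obox5 then passed the threshold (adjusted p = 0.0413 and 0.0353). Between bulk samples and non-neighboring pools, DESeq2 called 0.663% (79 genes), and Obox3, near 0, turned from -0.01 to 0.0048 with the 2 groups alone and lay between -0.6189 and 0.2006 without 1 bulk sample, above 0 without replicate 1, 2, 6 or 8 (0.1149, 0.2006, 0.0389 and 0.155). The causes were not tested.

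With the pool number as a block, 3 genes (0.0309%) were called in place of 44, and the differences were 6.41 for Obox1 (edgeR adjusted p = 0.0547), 6.69 for Obox2 (0.0567), 7.72 for Obox5 (0.167) and 3.73 for Obox3 (0.871). The deviations of pools with the same number had correlations of 0.0067 to 0.189, with 2 of 7 above 0.1. Of the 7 pools, 3 went best with their own number. These values cannot decide whether pools with the same number belong together.

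The summed stage difference moved with the pseudocount where primary oocytes were near 0, from 11.36 to 13.2 (pseudocount 0.1) and 8.82 (10) by SMART-Seq v4, and from 10.63 to 12.1 and 8.3 with DRaqL. It kept its sign in all 23 alternatives. The position difference kept its sign in all 58, and moved by more than the spread over cells in 1, to 4.78 by summed counts in captured cells of the same mouse, where 1 cell holds most reads. Shares of cells with reads moved in 18 of 36 alternatives, mainly with the read minimum and with thinning. Ratios of summed counts moved beyond their counting interval in 21 of 34 fits without the library with most reads of a group, and 32 of the 34 were above 1, the others being those of Obox6.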
